A study of Mus musculus with 6 samples.

Results

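The genes that make, sense and clear retinoic acid were examined in cultured mouse dendritic cells with and without DB2313, a small molecule that the study used as an inhibitor of Spi1 (PU.1), the transcription factor that drives myeloid gene expression. The 9 genes, of 54532 in the count table, were Aldh1a2, Rdh10, Dhrs3, Dhrs9, Rara, Rarg, Rxra, Rxrb and Cyp26b1. They were chosen by name, and the set was chosen because of the low counts of Aldh1a2 with DB2313, so the fold changes, intervals and calls of the 9 genes in this comparison are given as a description and support nothing. There were 3 libraries labelled as control and 3 libraries of cells given DB2313, with total counts of 16146743 to 19764677. Both groups were kept in 1640 medium with serum and antibiotics, and the labels gave no strain, genotype, sex, age, dose, duration or vehicle. The labels called the cells dendritic cells, and the table named its columns BMDC and SPI1. The text of the study described peritoneal macrophages, for which it gave a dose of DB2313. For a PCR experiment it also described monocytes kept for days in GM-CSF, to which the inhibitor was either added or not. Whether that dose or GM-CSF applied to the libraries used here was not stated. Every direction below rests on reading the SPI1 columns as the DB2313 libraries. Nothing stated whether the 3 libraries of a group came from separate cultures or animals, so errors and p-values measure the spread between libraries, which may be technical.

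Retinoic acid is made from vitamin A in a pair of steps. Retinol is oxidised to retinal by retinol dehydrogenases such as Rdh10, and retinal is then oxidised irreversibly to retinoic acid by a retinaldehyde dehydrogenase, of which Aldh1a2 (RALDH2) is the form best known in dendritic cells. Retinoic acid binds RAR receptors, which sit on DNA as partners of RXR receptors, and enzymes of the Cyp26 family degrade it. Dendritic cells of the gut and other sites that make retinoic acid are known for directing T cells to the intestine and for favouring regulatory T cells, and in culture GM-CSF and interleukin-4 are known to raise Aldh1a2.

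Markers of dendritic cells and of other myeloid cells were both well expressed. All 10 dendritic cell markers and all 10 genes listed as macrophage markers exceeded 10 CPM (the read count relative to the TMM-scaled size of its library). So did all 8 neutrophil markers, all 7 mast cell and basophil markers and 6 of 7 T cell markers. The dendritic cell markers summed to 5483 to 5554 CPM in control and 4978 to 5269 CPM with DB2313, and the macrophage markers to 9339 to 10680 and 8460 to 9233 CPM. Both sums were lower in every DB2313 library, but they rest on few genes and the single markers differed. Of all 14174 tested genes, 27.4% did not overlap between the groups in either direction. The separations of single markers below stand beside that share, and a change in cell types was not tested. Lyz2 alone gave 8285 to 9555 CPM of the macrophage sum in control and 7561 to 8253 CPM with DB2313. C1qa (28.1 to 33.6 CPM in control, 14.4 to 17.1 with DB2313) and C1qb (156 to 167 and 121.5 to 134) were lower in every DB2313 library. Apoe (212 to 237.5 and 154.5 to 159) and Mrc1 (106 to 159 and 66.2 to 94.5) were lower in every DB2313 library as well. Cd68 was also lower, by a small margin (174.5 to 190 and 167 to 174.4). Fcgr1 (47.3 to 49.1 and 55.6 to 60.8) was higher in every DB2313 library, and Adgre1, Mertk and Csf1 overlapped. Csf1 encodes a secreted growth factor, so its place on the macrophage list is weak. Most of the dendritic cell marker sum came from H2-Aa, H2-Ab1 and H2-Eb1. Itgax (168 to 176 CPM in control, 108 to 130 with DB2313) and Batf3 (95.03 to 113 and 54.7 to 80.8) were lower in every DB2313 library. So were H2-Eb1 (1597 to 1640 and 1373 to 1473), H2-Ab1 (1292 to 1325 and 1207 to 1278) and Dpp4 (48.5 to 55.8 and 40.0 to 45.2). H2-Aa, Cd86, Zbtb46, Flt3 and Ciita overlapped. The sums of the other lists overlapped between the groups, at 4380 to 5850 CPM for neutrophil, 1358 to 1634 CPM for mast cell and basophil and 159 to 240 CPM for T cell markers over the 6 libraries. Single markers differed here too. Hdc (96.8 to 109.7 CPM in control, 116.9 to 132.4 with DB2313), Fcer1a (69.3 to 72.7 and 79.0 to 99.9) and Gata2 (165.9 to 173.4 and 175.9 to 185.4) were higher in every DB2313 library. Ms4a2 (66.7 to 71.95 and 58.0 to 66.2) was lower in every DB2313 library. The 10 stromal and mesothelial markers, of interest because such cells also use Aldh1a2 in the body, summed to 2.52 to 4.70 CPM, and Col3a1, Dcn, Lum and Msln had no count in any library. Within the groups, the counts differed most between DB2313 replicates 1 and 3 (chi-square per degree of freedom 19.4, against 5.01 to 9.39 for the other pairs).

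Of the 9 genes, 8 had enough counts to enter the fit over all genes, and Cyp26b1 did not. Only Aldh1a2 was called (adjusted p under 0.05 in edgeR), which was 1 of 8, or 12.5%, where 10.6% of all 14174 tested genes were called, 5.94% as lower and 4.66% as higher. No overlap between the groups was seen for 3 of the 8, Aldh1a2, Dhrs3 and Rdh10, where 27.4% of all tested genes did not overlap. Since this comparison chose the set, nothing is read from these counts. The median log2 fold change was 0.069 over the 8 genes and 8.2e-04 over all tested genes.

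Aldh1a2 (ENSMUSG00000013584, GRCm38 chromosome 9, 71215789 to 71296243, plus strand) encodes the enzyme of the last, irreversible step. It had 2921, 3072 and 2919 counts in control replicates 1 to 3, or 180, 193 and 183 CPM, and 1531, 1507 and 1233 counts in DB2313 replicates 1 to 3, or 92.96, 75.6 and 74.1 CPM. The groups were separate, with every DB2313 value under the lowest control value, and DB2313 replicate 1 was the highest of its group. The mean fell from 185 ± 6.79 to 80.9 ± 10.5 CPM (SD, n = 3 each). The log2 fold change was -1.20 ± 0.09 (SE), a level 0.437 times that of control (95% interval 0.383 to 0.498). Counted from the lowest log2 fold change, which chose the set, Aldh1a2 ranked 116 of all 14174 tested genes and 6 of the 4485 with a mean of at least 50 CPM. Relative to the summed dendritic cell markers, Aldh1a2 stood at 3.23% to 3.49% in control and 1.47% to 1.76% with DB2313. In bulk samples, fewer cells that express Aldh1a2 and less Aldh1a2 RNA per cell cannot be told apart, and the part of the lower dendritic cell and macrophage marker sums in this difference was not tested. The summed stromal and mesothelial markers were below the level of Aldh1a2 in every library. Levels of different genes do not measure shares of cells, and the cell source of Aldh1a2 was not tested. Leaving out 1 library at a time gave log2 fold changes from -1.30 to -1.14.

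The sequences before the starts of Aldh1a2 and Dhrs3 are shown because their fold changes lay on either side of no change. Dhrs3 was not called, so the pair is not a contrast of a lowered with a raised gene. DB2313 is directed at PU.1, whose sites contain the ETS core GGAA. Each window holds 250 bases before and 50 bases after the RefSeq start on GRCm38.p6, read 5′ to 3′ on the strand of the gene, with GGAA or its reverse complement in capitals. Both starts equal the deposited gene starts.
Aldh1a2, chr9:71215539-71215838, plus strand: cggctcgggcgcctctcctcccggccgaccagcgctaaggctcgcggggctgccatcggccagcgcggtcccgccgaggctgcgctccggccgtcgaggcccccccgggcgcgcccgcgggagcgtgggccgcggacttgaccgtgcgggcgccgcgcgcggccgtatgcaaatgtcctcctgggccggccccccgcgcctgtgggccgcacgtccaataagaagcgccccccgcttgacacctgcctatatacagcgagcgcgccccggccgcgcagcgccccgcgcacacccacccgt
Dhrs3, chr4:144892577-144892876, plus strand: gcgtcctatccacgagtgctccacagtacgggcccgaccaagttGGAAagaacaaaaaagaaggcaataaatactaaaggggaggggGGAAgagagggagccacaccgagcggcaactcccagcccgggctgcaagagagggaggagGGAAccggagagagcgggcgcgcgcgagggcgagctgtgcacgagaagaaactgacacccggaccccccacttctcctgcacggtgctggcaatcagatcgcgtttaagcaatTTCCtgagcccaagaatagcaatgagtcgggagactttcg

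The Aldh1a2 window was 78.0% G and C and held no GGAA on either strand, whereas 96.0% of the 32851 promoter windows in the RefSeq table held at least 1. The second window of Rarg also held no GGAA. The Dhrs3 window shown, the first of 3, was 58.7% G and C and held GGAA 4 times. The first bases of these matches lay at -206, -163, -103 and +11 from the start. Windows 2 and 3 of Dhrs3 held GGAA 3 times each. RefSeq gave 16 windows for 8 of the 9 genes, Rdh10 being the exception. The longer PU.1 site GAGGAAGT, which contains the core, was in none of the 16 and in 3.2% of all windows on either strand. The retinoid receptor half-site AGGTCA (16.3% of all windows) was found in the window of Dhrs9, in the first of 2 windows of Rarg, in the last of 4 windows of Rara and 2 times in the second window of Rxra. GGTTCA (10.4%) was found 2 times in the third window of Rara. The direct repeat of AGGTCA with 5 bases between the copies was found in none of the 16 and in 3 windows overall. These matches are letters in a window of fixed length and say nothing of binding.

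**Figure D1:**
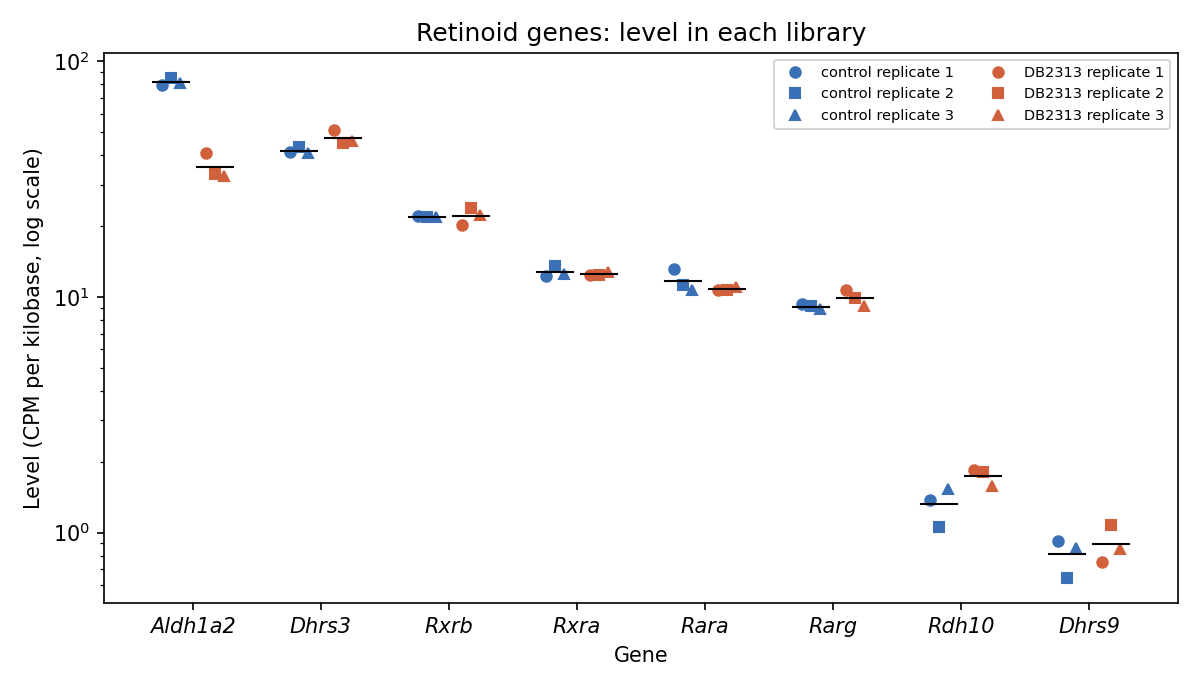
Level of 8 retinoid genes in each of the 6 libraries, in CPM per kilobase of gene length on a log axis; symbols are libraries and lines are group means. Aldh1a2 was the highest in control, at 81.8 CPM per kilobase, and lay at 35.7 with DB2313, below Dhrs3 at 47.5. Cyp26b1 is not drawn because it had no count in 2 libraries.

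The other enzymes were measured on the same scale. Dhrs3 (ENSMUSG00000066026, chromosome 4, 144892827 to 144928209, plus strand) reduces retinal back to retinol, and its gene is a known target of retinoic acid. It was at 120.4, 127 and 119 CPM in control and at 150.5, 132 and 135 CPM with DB2313. All DB2313 libraries lay above all control libraries, with DB2313 replicate 1 the highest. The log2 fold change was 0.19 ± 0.08 (SE), or 1.14 times control with a 95% interval of 1.02 to 1.27 before adjustment, and Dhrs3 was not called after adjustment over all genes. Per kilobase, Aldh1a2 was 1.93 to 1.99 times Dhrs3 in the control libraries and 0.709 to 0.799 times Dhrs3 in the DB2313 libraries, so the order of the pair differed between the groups in every library.

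Rdh10 (ENSMUSG00000025921, chromosome 1, 16105774 to 16133734, plus strand) oxidises retinol to retinal, the step before Aldh1a2. It was expressed at a low level, with 93, 70 and 102 counts in control and 126, 150 and 109 with DB2313. The values were 5.72, 4.39 and 6.40 CPM in control and 7.65, 7.52 and 6.55 CPM with DB2313. The lowest DB2313 value was just above the highest control value. The ratio to control was 1.32 with an interval of 0.989 to 1.75, and Rdh10 was not called. Per kilobase, Aldh1a2 exceeded Rdh10 by 52.6 to 80.6 times in control and by 18.5 to 22.3 times with DB2313.

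Dhrs9 (ENSMUSG00000027068, chromosome 2, 69380445 to 69404533, plus strand), another retinol dehydrogenase, had 64, 44 and 59 counts in control and 53, 92 and 61 with DB2313. The groups overlapped, and the ratio to control was 1.11 with an interval of 0.764 to 1.61. The interval holds differences in both directions.

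Cyp26b1 (ENSMUSG00000063415, chromosome 6, 84571414 to 84593908, minus strand), which degrades retinoic acid and is itself a known retinoic acid target, was near the limit of detection. It had 0, 0 and 1 count in control and 6, 5 and 3 counts with DB2313, so the 2 groups did not overlap. The share of 27.4% without overlap covers tested genes only and gives no background for Cyp26b1. Summed over libraries, 14 counts against 1 gave a ratio of 12.7 with an exact 95% interval of 1.93 to 537, which covers counting error alone and not the spread between cultures. In a fit with no filter on low counts, Cyp26b1 was not called.

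**Figure D2:**
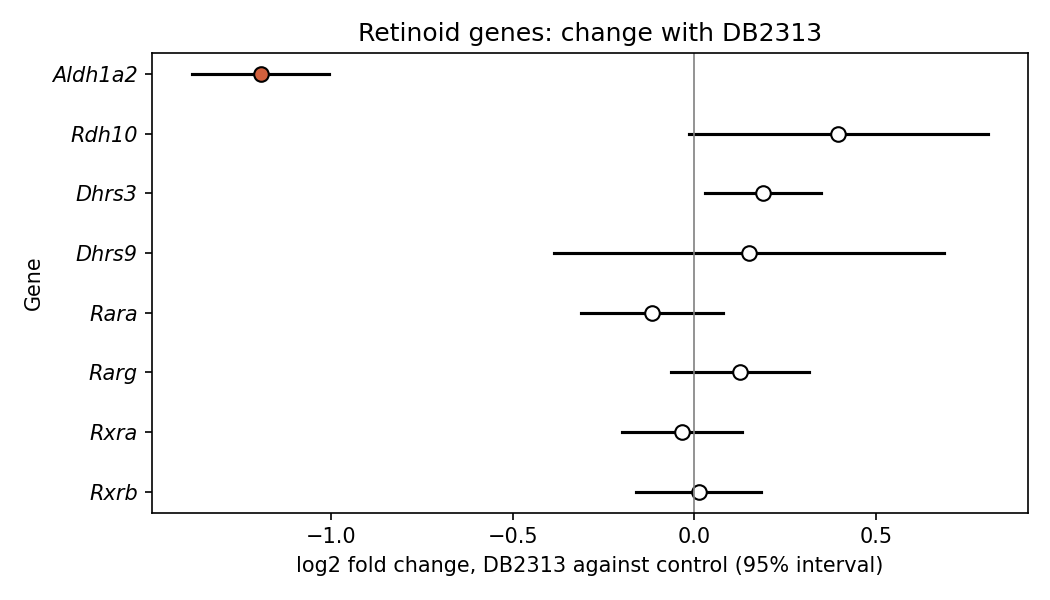
Log2 fold change of the 8 tested genes, DB2313 against control, with 95% intervals from edgeR before adjustment. The filled point is Aldh1a2 at -1.20, the gene for which the set was chosen; the open points, not called, lie between -0.12 for Rara and 0.40 for Rdh10.

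The receptors were well measured, and none was called. Rara (ENSMUSG00000037992, chromosome 11, 98927818 to 98974942, plus strand), encoding RAR alpha, was at 57.7, 49.1 and 46.8 CPM in control and at 46.8, 46.8 and 47.95 CPM with DB2313. The groups overlapped, with control replicate 1 above the other 5 libraries, and the ratio to control was 0.922 (interval 0.805 to 1.06). Without control replicate 1, the log2 fold change moved from -0.12 to -0.022. Rarg (ENSMUSG00000001288, chromosome 15, 102234938 to 102257517, minus strand), encoding RAR gamma, was at 39.7, 39.1 and 37.8 CPM in control and at 45.8, 42.2 and 39.1 CPM with DB2313. Its groups overlapped, and the ratio to control was 1.09 (interval 0.956 to 1.25).

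Rxra (ENSMUSG00000015846, chromosome 2, 27676440 to 27762957, plus strand) and Rxrb (ENSMUSG00000039656, chromosome 17, 34031812 to 34038393, plus strand) encode the partners with which the RARs and several other nuclear receptors bind DNA. Rxra was at 66.8, 74.0 and 68.4 CPM in control and at 67.5, 67.4 and 69.5 CPM with DB2313, a ratio of 0.977 (interval 0.871 to 1.09). Rxrb was at 81.3, 80.9 and 80.9 CPM in control and at 74.5, 88.5 and 82.1 CPM with DB2313, a ratio of 1.01 (interval 0.895 to 1.14). For both genes the groups overlapped. Together the RXR genes stood at 34.2 to 35.4 CPM per kilobase in control and 32.5 to 36.3 with DB2313, and the RAR genes at 19.6 to 22.5 and 20.2 to 21.5.

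The order of the levels was compared per kilobase of gene length. In control it was Aldh1a2 (81.8 ± 3.00 CPM per kilobase), Dhrs3 (41.7 ± 1.37), Rxrb (21.9 ± 0.072), Rxra (12.8 ± 0.691), Rara (11.7 ± 1.31), Rarg (9.11 ± 0.228), Rdh10 (1.32 ± 0.245), Dhrs9 (0.809 ± 0.145) and Cyp26b1 (SD, n = 3). The only neighbours that overlapped between libraries were Rxra and Rara. With DB2313 it was Dhrs3 (47.5 ± 3.43), Aldh1a2 (35.7 ± 4.63), Rxrb (22.1 ± 1.89), Rxra (12.5 ± 0.218), Rara (10.8 ± 0.153), Rarg (9.95 ± 0.783), Rdh10 (1.74 ± 0.145) and Dhrs9 (0.895 ± 0.167). Here the only neighbours that overlapped were Rara and Rarg. The order therefore differed between the groups at 1 place, the exchange of Aldh1a2 and Dhrs3. No test was made of these orders with 3 libraries a group.

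To place the 9 genes in their pathway, 78 other genes were grouped by role from general knowledge, and 58 of them were tested. The list was made with earlier results of these data known, so its shares are a description and not a test of enrichment. In cells given DB2313, 4 passed the threshold as higher and 9 as lower, together 22.4% of the 58, beside 10.6% of all tested genes. By role, the share called was 25% of 4 carriers, 0% of 10 other enzymes and 22.2% of 9 receptors and partners. It was 9.09% of 11 coregulators and 37.5% of 8 retinoic acid targets. For the 16 genes of inducing signals and of dendritic cells that make retinoic acid, it was 37.5%. The median log2 fold change was -0.089 over the 58 and 8.2e-04 over all tested genes. Without DB2313 replicate 3 there were 6 higher and 15 lower genes, but 2408 of all genes were then called in place of 1503.

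Among the carriers of retinoids, 4 of 10 genes were tested and 1 was lower. Fabp5, a fatty acid binding protein that also carries retinoic acid, fell from 782 ± 29.5 to 570 ± 70.2 CPM (SD, n = 3 each) (log2 difference -0.46, SE 0.08; edgeR adjusted p 0.00215). Its transcript matches Gm6166 over 409 bp (identity of at least 95%) and also matches 2 further genes, so its reads could be split among them. Stra6, the retinol uptake receptor, was at 1.21 ± 0.355 and 1.03 ± 0.168 CPM (adjusted p 0.808, edgeR). Crabp1 had no count in any library, and Crabp2 had at most 1 count.

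Among the other enzymes, 10 of 19 genes were tested and none was called by edgeR, with none at an unadjusted p under 0.05. The related dehydrogenases Aldh1a1 and Aldh1a3 had at most 11 and 14 counts in a library and did not pass the filter, so Aldh1a2 was the one retinaldehyde dehydrogenase of these 3 with more than 14 counts in any library. Rdh11, a retinal reductase, was at 26.5 ± 1.28 and 22.9 ± 2.13 CPM in control and treated cells (adjusted p 0.241, edgeR). Cyp26a1, the sister of Cyp26b1, was at 0.519 ± 0.178 and 0.742 ± 0.617 CPM, with an edgeR adjusted p of 0.715.

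Among the other receptors and the nuclear receptors that pair with RXR, 9 of 12 genes were tested and 2 were lower. Vdr, the vitamin D receptor, was at 217, 263 and 242 CPM in control and at 155, 164 and 153 CPM with DB2313. It fell by 0.61 on the log2 scale (SE 0.08), with an edgeR adjusted p of 1.4e-04. Thrb, a thyroid hormone receptor, fell from 6.30 ± 1.33 to 3.29 ± 1.00 CPM (log2 difference -0.94, SE 0.25; edgeR adjusted p 0.0253). Its adjusted p was 0.155, 0.0718 and 0.130 without control replicate 1, control replicate 2 and DB2313 replicate 2, respectively. Pparg, the lipid-sensing partner of RXR, was at 7.58 ± 0.223 and 7.51 ± 0.863 CPM (adjusted p 0.969, edgeR). Rarb had at most 13 counts and was not tested, and Rxrg had none.

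All 11 coregulators were tested and 1 was lower. Ncoa2, a coactivator, fell from 131 ± 15.6 to 88.1 ± 12.2 CPM (log2 difference -0.57, SE 0.10; edgeR adjusted p 0.00238). Its transcripts have matches of 100 bp or longer in 38 other genes, the longest of 150 bp (identity of at least 95%).

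Among other known retinoic acid targets, 8 of 10 genes were tested, 2 were higher and 1 was lower. Cd38, an ectoenzyme that consumes NAD, was at 53.2, 51.7 and 51.8 CPM in control and at 81.1, 90.2 and 86.9 CPM with DB2313. It rose by 0.72 on the log2 scale (SE 0.08), or 1.65-fold, with an edgeR adjusted p of 3.4e-05. Cebpe, a factor of granulocyte maturation, rose from 42.4 ± 2.30 to 57.2 ± 1.88 CPM (log2 difference 0.43, SE 0.08; edgeR adjusted p 0.00319). The summed neutrophil markers overlapped between the groups, at 4380 to 4931 CPM in control and 4440 to 5850 CPM with DB2313, but 4 of the 8 were higher in every DB2313 library. These were Elane (26.1 to 28.7 CPM in control, 37.7 to 48.0 with DB2313), Ly6g (32.4 to 39.5 and 44.5 to 60.0), Mpo (178 to 197 and 201 to 268) and Ltf (788 to 882 and 899 to 1119). S100a8, S100a9, Camp and Ngp overlapped between the groups. Camp (mean 126.6 CPM in control, 103.7 with DB2313) and Ngp (1198 and 1187) had lower means with DB2313. Over all tested genes, 27.4% did not overlap between the groups, in either direction. The part of the neutrophil markers in the rise of Cebpe was not tested.

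Hic1, a transcriptional repressor, fell from 34.9 ± 3.26 to 27.5 ± 0.855 CPM (log2 difference -0.35, SE 0.10; edgeR adjusted p 0.0347). Its adjusted p was 0.0568, 0.205, 0.0813 and 0.166 without control replicate 1, 2 or 3 or DB2313 replicate 2, 0.0508 with scaling by library totals and 0.0795 under the replicate block. Tgm2, transglutaminase 2, was at 444 ± 15.4 and 422 ± 47.6 CPM, with a log2 difference of -0.074 (SE 0.080; edgeR adjusted p 0.645).

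**Figure D3:**
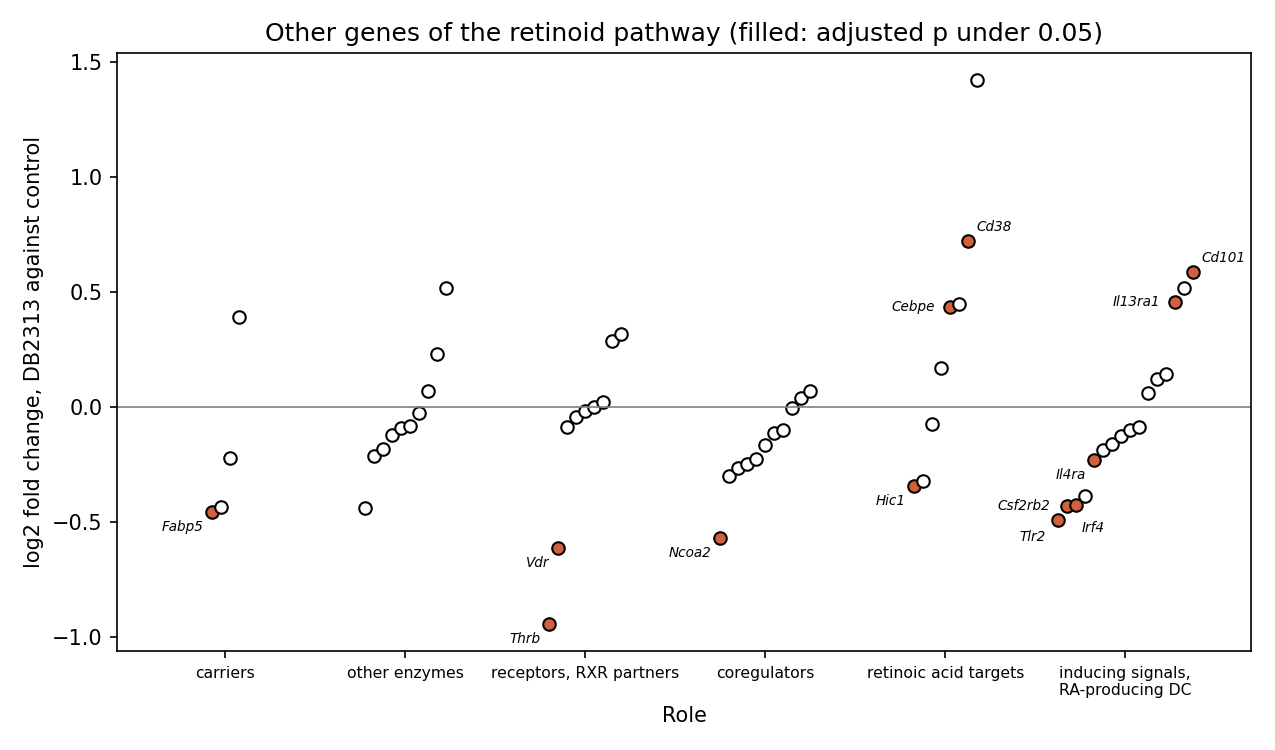
Log2 fold change of the 58 other tested genes of the pathway by role, DB2313 against control; filled and named points passed an adjusted p under 0.05 in edgeR. The 13 filled points are 9 lower genes, from Thrb at -0.94 to Il4ra at -0.23, and 4 higher genes, from Cebpe at 0.43 to Cd38 at 0.72.

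The last group held 16 genes of signals known to raise Aldh1a2 in dendritic cells and of dendritic cells that make retinoic acid, all tested, with 2 higher and 4 lower. Tlr2, a receptor for bacterial lipoproteins, was at 172, 169 and 175 CPM in control and at 124.5, 109.5 and 133 CPM with DB2313 (log2 difference -0.49, SE 0.08; edgeR adjusted p 8.97e-04). Irf4, a transcription factor of dendritic cells that partners with PU.1, fell from 152 ± 11.6 to 113 ± 2.19 CPM (log2 difference -0.43, SE 0.08; edgeR adjusted p 0.0018). In both genes the groups did not overlap, as in 27.4% of all tested genes.

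Of the cytokine receptors, Csf2rb2, a beta chain of the interleukin-3 receptor, fell from 912 ± 47.9 to 676 ± 59.4 CPM (log2 difference -0.43, SE 0.08; edgeR adjusted p 0.00169). Over 3134 bp it is nearly identical to Csf2rb, the beta chain of the GM-CSF receptor, so the split of reads between the pair is uncertain. Csf2rb itself was at 2219 ± 126 and 1987 ± 108 CPM (edgeR adjusted p 0.171, or 0.0225 without DB2313 replicate 3). Il4ra, the alpha chain of the interleukin-4 receptor, fell from 367 ± 17.7 to 313 ± 10.5 CPM with an edgeR adjusted p of 0.0401, which was 0.0940, 0.229, 0.105 and 0.236 without control replicate 1, 2 or 3 or DB2313 replicate 2. It was also above the threshold with scaling by library totals (0.0589), no filter on low counts (0.0532), the replicate block (0.134) and the block with a gene length offset (0.0855). Il4ra overlaps the antisense gene Gm44876 over 571 exonic bases. Its partner chain Il13ra1 rose from 42.2 ± 2.60 to 57.9 ± 2.72 CPM (log2 difference 0.46, SE 0.09; edgeR adjusted p 0.00268).

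Of the genes of retinoic acid producing dendritic cells, Cd101, an immunoglobulin superfamily receptor, rose from 7.31 ± 0.573 to 10.97 ± 0.519 CPM (edgeR adjusted p 0.0208, and 0.0802, 0.0831 and 0.0865 without control replicate 1, control replicate 3 and DB2313 replicate 2). Itgae, the CD103 chain that marks such cells in the gut, was at 7.05 ± 1.58 and 5.38 ± 0.761 CPM (adjusted p 0.296, edgeR). Itgb8, an integrin chain that activates TGF-beta, was at 0.537 ± 0.346 and 0.776 ± 0.453 CPM (adjusted p 0.667, edgeR).

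The genes whose profile was most like that of Aldh1a2 were sought among 9489 other well-expressed protein-coding genes, by the root mean square difference of log2 CPM over the 6 libraries (with 0.5 added to each CPM) after each profile was centred on its control mean. The 5 closest were Cd200 (0.104), Ccl9 (0.111), Met (0.113), Dcstamp (0.119) and Atp6v0d2 (0.127). Cd200, a ligand of an inhibitory receptor on myeloid cells, was at 58.3, 66.9 and 62.2 CPM in control and at 32.5, 29.5 and 26.4 CPM with DB2313. The chemokine Ccl9 was at 662 ± 8.08 and 322 ± 44.8 CPM, and Met, the receptor of hepatocyte growth factor, at 70.02 ± 4.46 and 30.5 ± 1.64 CPM. Dcstamp and Atp6v0d2, both known for their part in the fusion of osteoclasts and macrophages, were at 30.8 ± 1.81 and 13.8 ± 3.32 CPM and at 64.0 ± 7.56 and 29.4 ± 3.03 CPM, respectively. DB2313 replicate 1 was the highest of its group in Aldh1a2, Cd200, Ccl9, Dcstamp and Atp6v0d2 but not in Met. These genes were picked for their likeness, and no test was made of it.

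**Figure D4:**
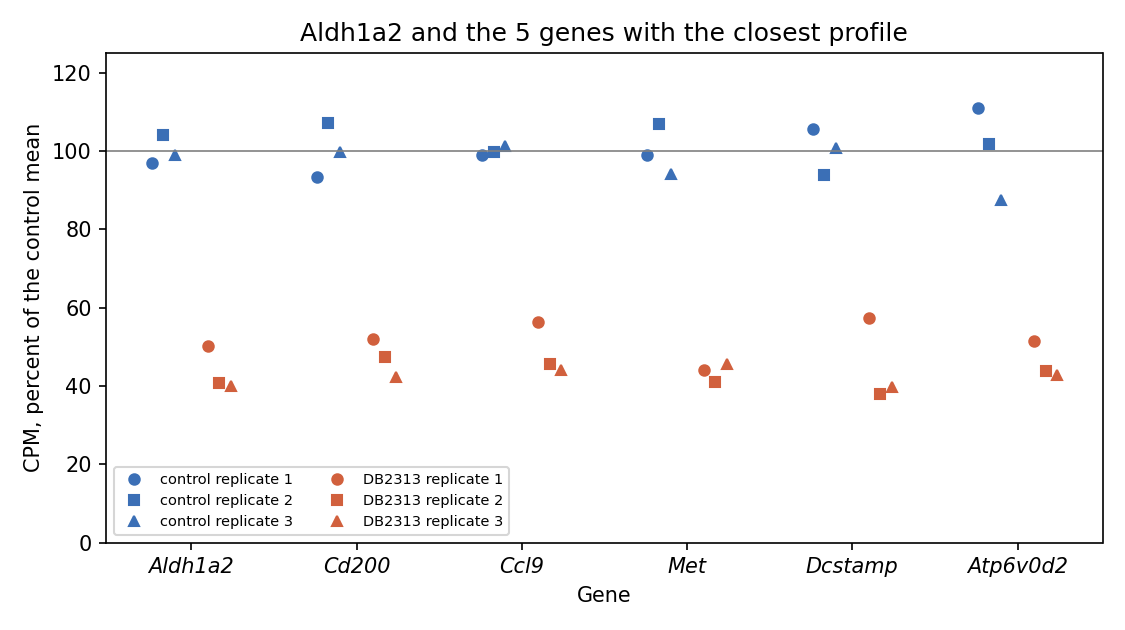
CPM of Aldh1a2 and of the 5 genes with the closest profile in each of the 6 libraries, as a percent of the mean of the control libraries; symbols are libraries. In each gene the DB2313 libraries lay below all control libraries, as the choice of these genes entails.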

How the data were processed

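For 6 libraries, the deposited values were raw counts of reads per gene, whole numbers that the authors had not normalised, beside gene lengths in base pairs. The labels' processing notes named CASAVA 1.8, HISAT2 2.0.5 and featureCounts 1.5.0-p3, whereas the methods of the study named LifeScope. Strandedness was not given in the sources used here. GENCODE M21 (GRCm38) held 54409 of the identifiers, 98.33% of them at identical coordinates, so that build is used. Counts were tested with edgeR 4.0.16 in R 4.3.3 (filterByExpr, TMM, quasi-likelihood test, group as the only term, prior count of 0.125, Benjamini-Hochberg over 14174 genes), after a test on simulated data. SE and intervals derive from the F statistic. A gene was called at an adjusted p under 0.05. Alternatives were DESeq2 1.42.0, limma-voom (limma 3.58.1), other scalings and filters, an offset for gene length, a replicate block and the omission of each library. Similar sequences were sought with blastn 2.17.0 among the GENCODE M21 transcripts. Promoter windows came from RefSeq (GRCm38.p6).

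The genes and lists were chosen with earlier results of these data known. The text names the 9 genes, every called gene of the wider list, 18 further genes of it fixed by name, 2 of which are not reported here, and the 5 closest to Aldh1a2 with a mean of at least 3 log2 CPM. Total counts per library bound the precision, and errors cover the spread between libraries.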

Additional observations from a re-analysis of the deposited data

How the results depend on the processing

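Of the 9 retinoid genes, 1 was called in each of the 15 alternatives, Aldh1a2, with log2 fold changes from -1.30 to -1.14. The numbers of the wider list ranged from 9 to 21 called genes when single libraries were left out, lowest without control replicate 1 or DB2313 replicate 2 and highest without DB2313 replicate 3, and those of all genes from 739 (without DB2313 replicate 2) to 2408 (without DB2313 replicate 3), with 796 to 854 when a control library was left out. The cause was not tested. In the other alternatives the wider list gave 11 to 14. Scaling by library totals moved the split of all calls to 731 higher and 703 lower. Cyp26a1 turned to -0.096 with limma-voom and ranged from -0.046 to 1.04 over the fits that left out 1 library. For Pparg, library totals gave 0.0063, and leaving out 1 library gave -0.076 to 0.079. Neither was called in any fit.

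Libraries with the same number did not deviate together from their groups (correlations of -0.0080, -0.019 and -0.15), so the numbers are not taken as pairs. With the replicate block, 1131 genes were called in all, 11 of them in the wider list.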
